A study of Mus musculus with 16 samples.

Results

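In mouse liver, 210 of the 24539 genes in the deposited tables were well read in total mRNA and all but missing from mRNA bound to ribosomes. They were chosen by their own values: a mean of at least 10 CPM (read count scaled to library size) over 4 mRNA libraries, and at most 3 reads in each of 4 libraries of RNC mRNA. RNC mRNA is the mRNA pelleted together with ribosomes and their nascent chains. Names that start with Rpl, Rps or Zfp and genes with noncoding identifiers only were left out by the same rule. The livers came from male C57BL/6 mice 16 weeks old, fed for 8 weeks either a high-fat diet (HF) or a high-fat diet plus Betaine (HB), so both groups carried the high-fat diet and no group on normal feed was analysed here. Betaine is a methyl donor. Each diet had 2 libraries of mRNA, 2 of RNC mRNA and 2 of m6A, in which fragments of RNA that carry N6-methyladenosine are enriched by antibody. Per the labels, the material for mRNA and RNC mRNA was pooled from independent experiments, so every p-value measures the spread between these pools and not between mice.

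An mRNA that is being translated carries ribosomes and is pelleted with them through a sucrose cushion, whereas an mRNA that is stored, held in the nucleus or otherwise idle is not. Mitochondria have ribosomes of their own, whose proteins are encoded in the nucleus, made in the cytosol and imported. These ribosomes translate the few mRNAs of the mitochondrial genome, all of which encode parts of the respiratory chain or of ATP synthase.

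The largest named group among the 210 was the proteins of the mitochondrial ribosome. Of 77 genes with Mrpl or Mrps names (large and small subunit) at 10 CPM or more, 32 were absent from RNC mRNA, 19 of 48 Mrpl and 13 of 29 Mrps. Promoters of 3 of the 32 are shown as examples of the family and of its motif matches. None of the 3 passed the test of diet in mRNA given further on (edgeR adjusted p = 0.198 for Mrpl30, 0.0852 for Mrpl17 and 0.0962 for Mrps27). Each is the 250 bases before a start in RefSeq (GRCm38.p6), 5′ to 3′ on the gene's strand. Capitals mark a match to the motif of NRF1, an activator of nuclear genes for mitochondrial proteins (GCGCA, then any base, then GCGC, on both strands), or to an ETS family motif (CCGGAAGT, both strands). The motifs do not overlap each other in the windows shown. Mrpl30 lies at chr1:37890227-37890476 on the plus strand, Mrpl17 at chr7:105811088-105811337 on the minus strand and Mrps27 at chr13:99344536-99344785 on the plus strand. The RefSeq span of Mrps27 begins at 99344767, so the last bases of its window lie inside that span.
Mrpl30: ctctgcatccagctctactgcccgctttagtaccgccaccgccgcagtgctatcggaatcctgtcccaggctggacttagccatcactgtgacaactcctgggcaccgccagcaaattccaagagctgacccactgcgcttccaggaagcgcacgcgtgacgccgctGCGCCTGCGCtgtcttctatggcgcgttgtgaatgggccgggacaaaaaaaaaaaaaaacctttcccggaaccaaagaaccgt
Mrpl17: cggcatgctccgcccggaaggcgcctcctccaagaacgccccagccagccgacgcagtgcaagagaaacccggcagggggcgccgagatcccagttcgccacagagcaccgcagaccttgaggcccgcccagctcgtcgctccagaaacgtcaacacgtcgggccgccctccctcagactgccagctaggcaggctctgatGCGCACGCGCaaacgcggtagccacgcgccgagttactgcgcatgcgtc
Mrps27: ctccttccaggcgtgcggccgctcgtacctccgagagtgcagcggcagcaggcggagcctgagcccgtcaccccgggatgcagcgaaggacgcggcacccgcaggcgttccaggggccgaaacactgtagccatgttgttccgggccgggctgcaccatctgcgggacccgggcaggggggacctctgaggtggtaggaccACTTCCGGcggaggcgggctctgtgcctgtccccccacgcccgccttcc

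Among 33 promoter windows of 29 of these genes, 5 (15.2%) held the NRF1 motif, against 9.04% of 5564 windows of other genes in the same CPM range and 3.74% of all 32851 windows. The ETS motif was in 5 (15.2%), against 7.37% and 2.88%. TATAAA was in 3 (9.09%), against 5.86% and 12.4%. These motifs and the window were chosen after 9 sequence patterns had been looked at. Over the whole 300 bases of each window, NRF1 was in 7 of 33 (21.2%), against 6 of 41 (14.6%) for mitochondrial ribosomal genes over the read limit and 10.8% in the same CPM range. With so few windows, 1 promoter more or less moves a share by several percent. Among mitochondrial ribosomal genes over the read limit, the NRF1 share of the 250 bases was 5 of 41 windows (12.2%) and the ETS share the same.

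The RNC counts are given here beside the depth. If an mRNA had the same CPM in RNC mRNA as in the mRNA of its diet, the smallest expectation in any of the 4 RNC libraries had a median of 71.0 reads over the 210 genes, from 14.5 to 309. Summed over the 210 genes, the HF RNC libraries held 22 and 14 reads where 20714 and 23055 would correspond to their mRNA share. The HB RNC libraries held 23 and 39 where 28894 and 38442 would. In 167 genes all 4 RNC libraries were at 0, which allows up to 0.110 CPM (3 reads over the 4 libraries together; counting error only). The highest count in any RNC library was 1 in 24 genes, 2 in 10 and 3 in 9. The rule fixed both sides of this comparison, so it is a description and no test.

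Examples show the contrast. The mRNA of Mrps34, a small-subunit protein of the mitochondrial ribosome, was at 48.0 and 53.8 CPM in HF and 78.6 and 85.5 in HB, and its RNC reads were 0 and 1 in HF and 0 and 0 in HB where 294 to 711 correspond to its mRNA level. Rxrb, a nuclear receptor that pairs with other receptors of lipid metabolism, was at 64.4 and 62.7 CPM in HF and 33.9 and 40.03 in HB. It had no read in any RNC library, which by counting error alone puts RNC mRNA at least 459-fold lower than mRNA. The spread between libraries is not in that bound. Erbb3, a growth factor receptor, was at 41.4 and 34.7 CPM in HF and 38.4 and 48.4 in HB. It also had no RNC read, at least 372-fold lower by counting error alone. Both genes therefore had reads in all mRNA libraries and in no RNC library. Taz (tafazzin, which remodels the mitochondrial lipid cardiolipin) had 1 RNC read in all. Imp3, a protein of small-subunit rRNA processing, had 3, 1, 1 and 0.

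Values on either side of the limits were as follows. Just inside the CPM limit were Nrros at 10.04 and Ado at 10.09 CPM, and just outside were Ormdl1 at 9.98 and Arl6ip6 at 9.98, all at 0 RNC reads. With a highest count of 3 reads, just inside, were Mrpl30, Cldn2, Imp3 and 6 others. With 4 reads, just outside, were Mrpl1, Mrpl42, Mrps18c, Sgk1 and Suz12. Of the 7922 genes at 10 CPM or more, 171 had 0 in all RNC libraries, 54 reached 1 to 3 reads, 19 reached 4 to 10, 208 reached 11 to 50, 636 reached 51 to 100 and 6834 passed 100. The 77 Mrpl and Mrps genes were spread more evenly over the same classes, with 15, 17, 6, 22, 10 and 7 genes, and the plot of RNC read classes shows ribosomal names beside all others.

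**Figure D1:**
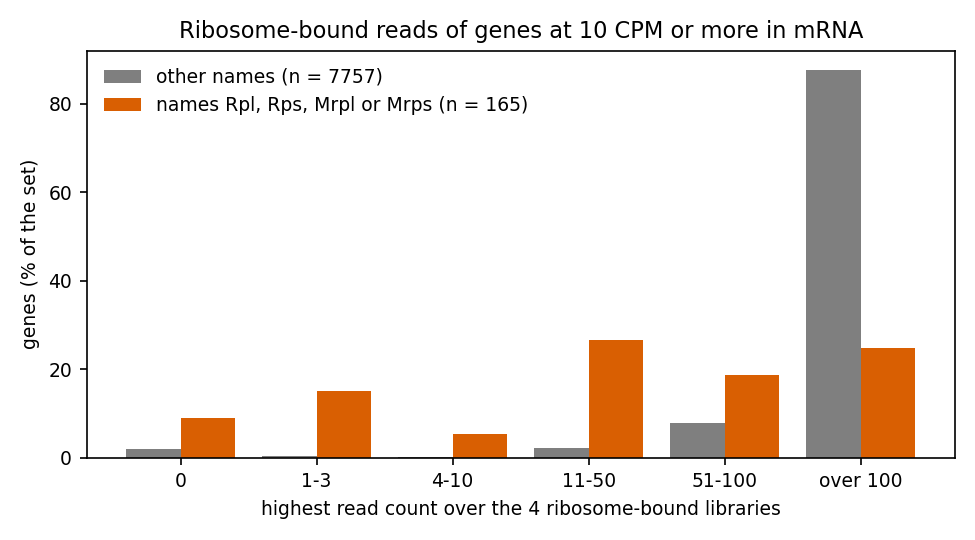
Highest read count over the 4 RNC libraries (x axis, classes) against the percent of genes at 10 CPM or more in mRNA (y axis), for the 165 genes with names of ribosomal proteins (Rpl, Rps, Mrpl, Mrps; the kinases and the binding protein with Rps names included) and for the 7757 others. Among other names 87.6% passed 100 reads and 2.01% were at 0, and among ribosomal names 24.8% passed 100 reads and 9.09% were at 0.

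Absence was more frequent in less abundant mRNAs. Of genes at 10 to 12 CPM, 10.2% were among the 210, and the share was 4.30% at 15 to 20 CPM, 1.84% at 30 to 50 CPM with 0 of 625 genes at 70 to 100 CPM and 0 of 1473 above. The mitochondrial ribosomal genes were placed differently: 15 of the 32 were at 30 CPM or more, against 17 of the 178 others. The rule used both the mRNA level and the RNC reads, and a fixed read limit is met more easily at low CPM. These shares are therefore a description and no test.

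A count of 0 in a single RNC library was common and often not shared by the other library of that diet. Of 7922 genes at 10 CPM or more, 1188 were at 0 in the first HF RNC library and 910 in the second. Of the 1188, 59.2% had over 20 reads in the second. The HB RNC libraries were nearly the same data: of 731 genes at 0 in the first, 93.7% were at 0 in the second and none had over 20 reads there. The chi-square per degree of freedom was 1.40 between them and 98.0 between the HF RNC libraries. The 4 RNC libraries of the rule thus hold little more than 3 separate samples. Without either HB library the rule would give 211 genes, without the first HF library 337 and without the second 367.

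Among ribosomal genes, low RNC counts went with the gene's name. Over the 77 Mrpl and Mrps genes the median ratio of RNC to mRNA CPM was 0.0145, 64 were under 0.1 and none reached 1. Over 7757 genes without a ribosomal protein name the median was 0.887 and 3.66% were under 0.1. Proteins of the same mitochondrial ribosome under other names had ample RNC reads, as a list chosen after the values were seen shows. Dap3, a small-subunit protein, had 837 and 2092 reads in HF RNC mRNA and 1367 and 1817 in HB. Gadd45gip1, a large-subunit protein, had 1279, 2088, 2243 and 2940, Ptcd3 had 449, 714, 725 and 965, and Aurkaip1 had 447, 1279, 1188 and 1550. The ratio of RNC to mRNA CPM was 5.03 for Dap3, 3.10 for Gadd45gip1, 2.52 for Ptcd3 and 1.79 for Aurkaip1. Chchd1 had 37 and 148 RNC reads in the HF libraries and none in HB. Since the HB RNC libraries were nearly the same data, no difference between the diets is drawn from this. Conversely, genes that carry an Rps name but encode no ribosomal protein were absent: the kinases Rps6ka1, Rps6ka4, Rps6kb1 and Rps6kb2 and the binding protein Rps19bp1 were all at 3 reads or fewer in every RNC library (5 of 5 at 10 CPM or more). The rule leaves these 5 out by name. Of the same kind of name under 10 CPM, Rps6kc1 (7.23 CPM in mRNA) had 76 reads in the first HF RNC library. It had none in the second or in HB, and Rps6ka2, Rps6ka3, Rps6ka5 and Rps6kl1 had no RNC read. Of cytosolic ribosomal proteins under other names, Rack1 had 3293, 2775, 5242 and 6835 RNC reads, a ratio of RNC to mRNA CPM of 2.39. Fau had 260, 312, 423 and 592 reads at 371 CPM in mRNA, a ratio of 0.153, so its RNC level was low without a ribosomal name. What set the reads of these rows by name was not tested, and a count near 0 in an Mrpl, Mrps, Rpl or Rps row is not read here as a measure of ribosome binding.

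**Figure D2:**
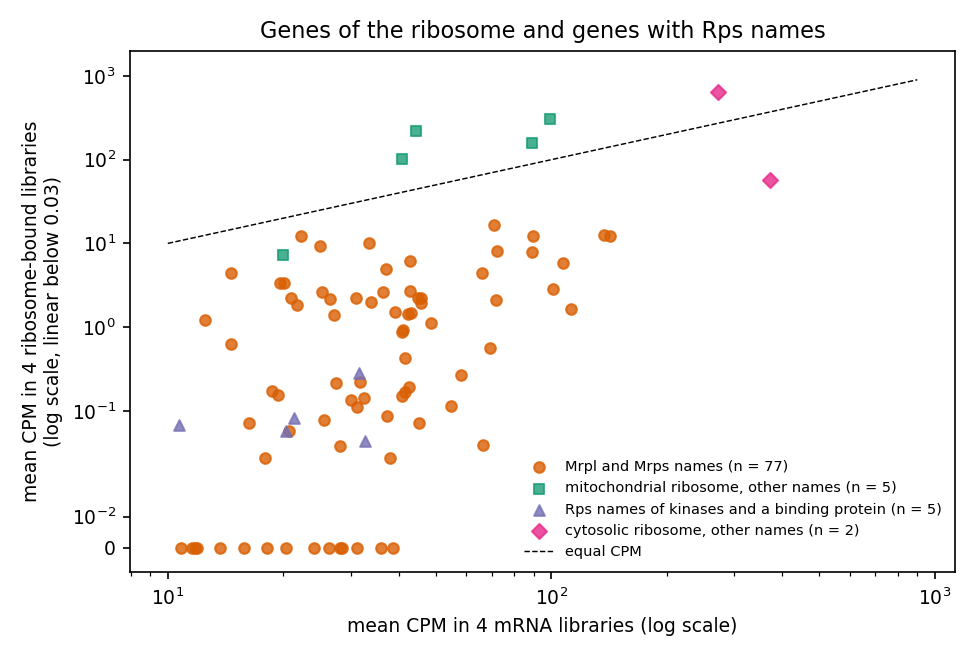
Mean CPM in 4 mRNA libraries (x axis, log scale) against mean CPM in 4 RNC libraries (y axis, log scale, linear below 0.03) for genes at 10 CPM or more. All 77 Mrpl and Mrps genes (circles) and 5 genes with Rps names of other function (triangles) lie below the line of equal CPM, and 4 of 5 mitochondrial ribosome genes with other names (squares) lie above it.

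Over all genes at 10 CPM or more the absent share was 2.65% (210 of 7922). Of 45 ribosome biogenesis genes at 10 CPM or more, a list added after seeing the values, 6 were absent (13.3%): Imp3, Exosc5, Mrto4, Pes1, Rsl24d1 and 1810022K09Rik. Exosc5 is a subunit of the RNA exosome, and Pes1 and Mrto4 act in large-subunit assembly. Of 18 mitochondrial translation factors 1 was absent, Malsu1, which binds the mitochondrial large subunit. Of 87 subunits of the respiratory chain and ATP synthase, the machinery that mitochondrial ribosomes serve, 0 were absent, as were 0 of 45 proteasome subunits, 0 of 62 subunits of RNA polymerase II and its general factors, and 0 of 53 cytochrome P450 genes. At a share of 2.65% lists of this size would hold few absent genes, so these zeros are near the background.

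Outside the ribosome the 178 other genes were spread thinly over function, and 68 of all 210 fell in any of 28 function lists. Transcription factors gave 9 of 115 genes, among them Rxrb, Crebbp (a histone acetyltransferase and coactivator), Foxj2, Foxo3 and Myc. Nfkb1, the precursor of an NF-kappa-B subunit, was at 46.1 and 41.7 CPM in HF and 22.0 and 22.2 in HB with no RNC read. Splicing proteins gave 4 of 76, including Snrpb, a core protein of spliceosomal snRNPs. Solute carriers gave 4 of 153, chromatin regulators 3 of 93, and glutathione, sulfo and glucuronosyl transferases 3 of 38. Among genes in no list were Tfam, which packages and transcribes mitochondrial DNA, with mRNA at 40.9 and 31.5 CPM in HB, and Cldn2, a tight junction protein that forms a cation pore. Of markers of other liver cells, Kdr (endothelial) and Lrat (stellate) were among the 210, and no hepatocyte marker was. This is no contrast of cell types, since the level decided much of it. The lowest hepatocyte marker, Hnf4a, was at 510 CPM or more in each mRNA library, and no gene at 70 CPM or more was among the 210. Markers under 10 CPM, such as Krt19 and Cd3e, could not be among them either. Most endothelial and stellate markers did have RNC reads. Among endothelial markers, Stab2, Clec4g, Pecam1 and Lyve1 had them in both diets. Among stellate markers Reln, Des and Dcn did, and Col1a1 had 1 read in 1 HF RNC library and none elsewhere. Fewer cells of a type and less RNA per cell cannot be told apart in these bulk libraries. The summed level of the 5 endothelial markers was 165 and 177 CPM in HF and 115 and 137 in HB mRNA, and that of the 5 stellate markers 92.2 and 88.7 in HF and 175 and 105 in HB. Their part in the levels of Kdr and Lrat was not tested.

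The longest transcript of a gene had a median of 2428.5 bases over the 210 genes (401 to 10727), against 2995 over 5315 other genes in the same CPM range. Within the 210 it was 1170 bases for the 32 mitochondrial ribosomal genes and 2681.5 for the 178 others. Mitochondrial ribosomal genes over the read limit had a median of 992 bases. The share of absent genes was 3.70% at 500 to 1000 bases, 3.35% at 1000 to 2000, 2.34% at 2000 to 4000 and 2.21% at 4000 to 8000. In the same order, 10 of 21, 17 of 62, 3 of 73 and 1 of 43 of these absent genes were mitochondrial ribosomal. The higher shares of the short classes thus came in large part from that family, whose RNC counts are not read here as ribosome binding. The shortest included Smim4 and Mrpl33 (466 bases, 76.4 RPKM, reads scaled to length and depth) and the longest Bahcc1 (10727 bases) and Pgap1 (10579 bases). Length does not enter the rule, but a longer mRNA at the same number of molecules gives more reads.

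Diet moved many of the 210 in mRNA, mostly upward with Betaine. All 210 passed the low-count filter. With edgeR's quasi-likelihood test and Benjamini-Hochberg adjustment over 12817 genes at a threshold of 0.05, 56 of the 210 rose in HB, 7 fell and 147 did not pass. Of all genes tested 11.3% were called higher and 10.1% lower, 21.4% in all. Of 5315 other genes in the same CPM range 11.8% were higher and 11.6% lower. The median log2 change (HB over HF) was 0.58 over the 210, 0.01 over all genes tested and 0.00 in the same CPM range. Of the 210 fitted changes 164 were positive with TMM scaling and 140 with total counts. The mRNA libraries of HB were also deeper, at 18011999 and 22492813 reads, than those of HF, at 11437462 and 11570775, and the part of depth in these calls was not tested.

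Part of that count follows from the rule. A gene that reaches a mean of 10 CPM only through 1 diet had to be higher there: 46 of the 210 were under 10 CPM in HF and 33 of them were called higher, and 26 were under 10 CPM in HB and 4 of them were called lower. Among the 138 genes at 10 CPM or more in both diets, 23 (16.7%) were higher and 3 (2.17%) lower, against 11.2% and 9.46% of 4576 other genes. Their median log2 change was 0.48, against 0.07 in those others.

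Of the 32 absent mitochondrial ribosomal genes 12 rose, 0 fell and 20 did not pass. Their median log2 change was 0.77. All 32 fitted changes were positive with TMM, and 31 with total counts, where the median was 0.48 and that of all genes -0.28. Among the 28 at 10 CPM or more in both diets 8 rose and 0 fell, with a median of 0.74. Of the 45 over the read limit 8 were higher and 1 lower, with a median of 0.33. Whether the absent genes of this family differ from the others was not tested. A rise was not particular to absent genes. Of 87 respiratory chain and ATP synthase subunits, none absent, 25 rose and 0 fell (median 0.62). Of 45 proteasome subunits, none absent, 20 rose and 0 fell (0.80). Other lists fell, such as 93 chromatin regulators with 3 higher and 32 lower (-0.58). Mrps12 of the small subunit was at 16.1 and 14.6 CPM in HF and 33.4 and 32.4 in HB, a log2 change of 1.39 ± 0.28 (SE, n = 2 per diet; edgeR adjusted p = 0.00964). Mrpl34 of the large subunit was at 24.9 and 27.1 in HF and 48.5 and 51.1 in HB, a change of 1.23 ± 0.27 (edgeR adjusted p = 0.0128). Mrps34, given above, changed by 0.98 ± 0.27 (edgeR adjusted p = 0.0277). In all 3 genes both HB libraries lay above both HF libraries. Mrpl30 and Mrpl17, whose promoters are printed above, changed by 0.52 ± 0.28 and 0.75 ± 0.29 and did not pass. Without 1 HF library, whichever it was, Mrps12, Mrpl34 and Mrps34 no longer passed; only Mrpl44 and Mrps22 of the 12 passed in all 4 fits that left out 1 library. Both of these averaged under 10 CPM in HF and met the limit through HB.

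All 3 absent glutathione, sulfo and glucuronosyl transferases rose, and of all 38 genes of that list 18 rose and 1 fell. Of the 3, Ugt1a6a and Ugt1a6b were under 10 CPM in HF and so were bound by the rule to be higher in HB, as was Mup15 below, whereas Gstm3 averaged 13.5 CPM in HF. Mup15 encodes a major urinary protein, a secreted pheromone carrier of male liver, and lies at chr4:61435787-61439833 on the minus strand (RefSeq, GRCm38.p6). It was at 1.66 and 5.01 CPM in HF and 56.6 and 54.5 in HB, a log2 change of 4.34 ± 0.45 (edgeR adjusted p = 0.00403). The HB libraries lay together and far above both HF libraries. Ugt1a6a, a glucuronosyltransferase that conjugates phenols, was at 2.27 and 6.14 CPM in HF and 51.1 and 16.6 in HB, a change of 3.27 ± 0.55 (edgeR adjusted p = 0.00626). Ugt1a6b, which shares exons with it, changed by 2.88 ± 0.58 and Gstm3, a glutathione transferase, by 1.87 ± 0.37. Near-identical copies exist for Mup15, the Ugt1a6 pair, Gstm3, C1rb, Hist1h2be, Mfap1b and Gm5148, so both their mRNA reads and their missing RNC reads may have been split among paralogs and are uncertain.

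Both absent genes of the list on ER translocation and signal peptidase rose, and of all its 24 genes 6 rose and 1 fell. Outside that list Arl1, Rtn4 and Cldn2 rose as well. Spcs1 and Arl1 averaged under 10 CPM in HF and were bound by the rule to be higher in HB, whereas Srp14, Rtn4 and Cldn2 were not. Arl1, a small GTPase of the Golgi, was at 1.40 and 3.63 CPM in HF and 42.9 and 12.9 in HB, a log2 change of 3.73 ± 0.58 (edgeR adjusted p = 0.00486). The HB libraries differed from each other more than 3-fold, and both lay above both HF libraries. Spcs1, a subunit of the signal peptidase, was at 7.34 and 7.09 in HF and 42.4 and 17.8 in HB, a change of 2.33 ± 0.40 (edgeR adjusted p = 0.00634). Srp14, of the signal recognition particle, changed by 1.21 ± 0.28. Rtn4, a reticulon that shapes the endoplasmic reticulum, was at 17.0 and 12.3 in HF and 70.5 and 37.3 in HB (2.16 ± 0.34). Cldn2 was at 21.1 and 17.0 in HF and 91.8 and 48.0 in HB (2.15 ± 0.34; edgeR adjusted p = 0.00486). Nuclear genes that rose included Hist1h2be, a histone (2.50 ± 0.39), and Snrpb (1.54 ± 0.28). Zbed6, a transcriptional repressor, passed with 2.47 ± 0.64 but not in DESeq2 or without the first HB library, and its change ran from 1.66 to 4.42 when 1 library was left out. Hist1h2be and Zbed6 also averaged under 10 CPM in HF.

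**Figure D3:**
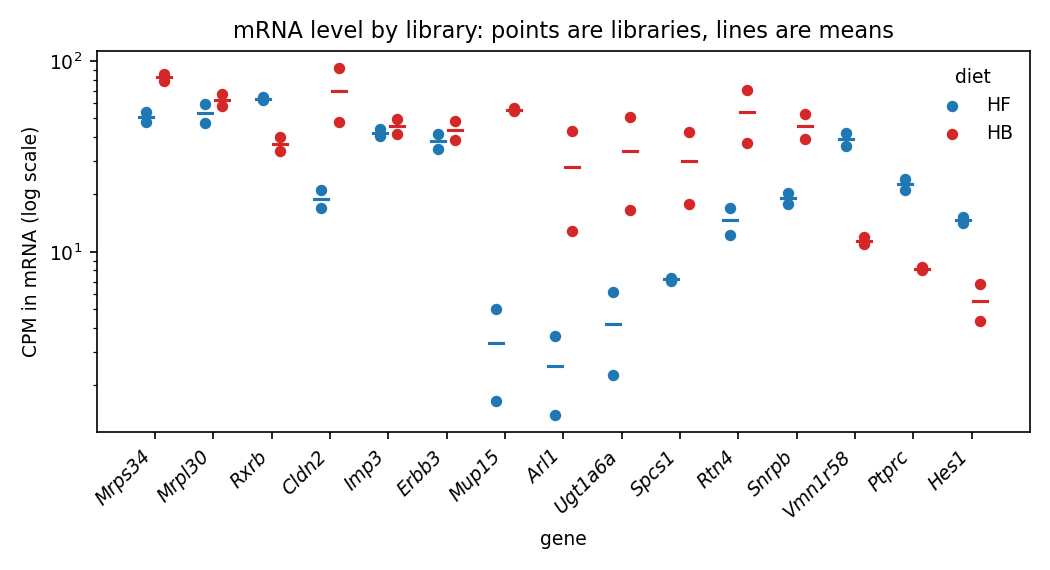
mRNA level in CPM (y axis, log scale) of 15 of the 210 genes, with 2 libraries per diet as points and their mean as a line. Mup15, Arl1 and Ugt1a6a are under 10 CPM in both HF libraries and above it in both HB libraries, and Vmn1r58, Ptprc and Hes1 are lower in both HB libraries.

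The 7 that fell were Vmn1r58, Scarf2, Ptprc, Tert, Hes1, Fhod1 and Map3k3. Vmn1r58, named for a vomeronasal receptor of a family with many similar copies, was at 36.0 and 41.9 CPM in HF and 11.03 and 11.9 in HB, a log2 change of -1.47 ± 0.29 (edgeR adjusted p = 0.00894). Ptprc (CD45, a phosphatase of blood cells) was at 21.0 and 24.2 in HF and 8.05 and 8.33 in HB, a change of -1.17 ± 0.31 (edgeR adjusted p = 0.0219). Hes1, a repressor induced by Notch, was at 14.2 and 15.2 in HF and 6.76 and 4.33 in HB (-1.12 ± 0.34; edgeR adjusted p = 0.0376). In all 3 both HB libraries lay below both HF libraries. Ptprc and Hes1 averaged under 10 CPM in HB and so were bound by the rule to be lower there, whereas Vmn1r58 was not. Summed neutrophil markers were 12.4 and 39.8 CPM in HF and 4.802 and 5.39 in HB mRNA, and summed Kupffer cell markers were 218 and 222 in HF and 246 and 214 in HB. Within the Kupffer cell sum Clec4f was at 178 and 158 CPM in HF and 118 and 119 in HB. Timd4 was narrowly lower in both HB libraries, Cd5l, Vsig4 and Marco were higher in both, and Adgre1 was mixed. Summed T or NK cell markers were 3.67 and 5.01 in HF and 1.91 and 2.39 in HB. Summed B cell markers were 2.01 and 5.88 in HF and 2.45 and 1.17 in HB. The part of any of these cell types in the fall of Ptprc was not tested. Rxrb, Nfkb1 and Taz were lower in both HB libraries without passing, with changes of -0.49 ± 0.27, -0.70 ± 0.27 and -0.43 ± 0.28 (edgeR adjusted p = 0.212, 0.0833 and 0.284).

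Single libraries carried many calls. Of the 56 higher genes 17 passed in each of 4 fits that left out 1 mRNA library, but only 4 of the 17, Rtn4 and Cldn2 among them, averaged 10 CPM or more in HF, and the others met the limit through HB. Of the 7 lower genes Vmn1r58 passed in all 4 and the other 6 in 1 each. Without the first HF library 25 rose and 1 fell, and without the second 31 and 3. Scaling by total counts in place of TMM gave 39 higher and 18 lower, so 68.4% of calls were higher against 88.9%. It moved the median of all genes to -0.28 and that of the 210 to 0.29, and the gap between the medians stayed at 0.57. When the 4 RNC libraries shared the fit, 0 of the 210 passed in either direction (25 at an unadjusted p under 0.05), and 81 of all genes were higher and 50 lower.

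**Figure D4:**
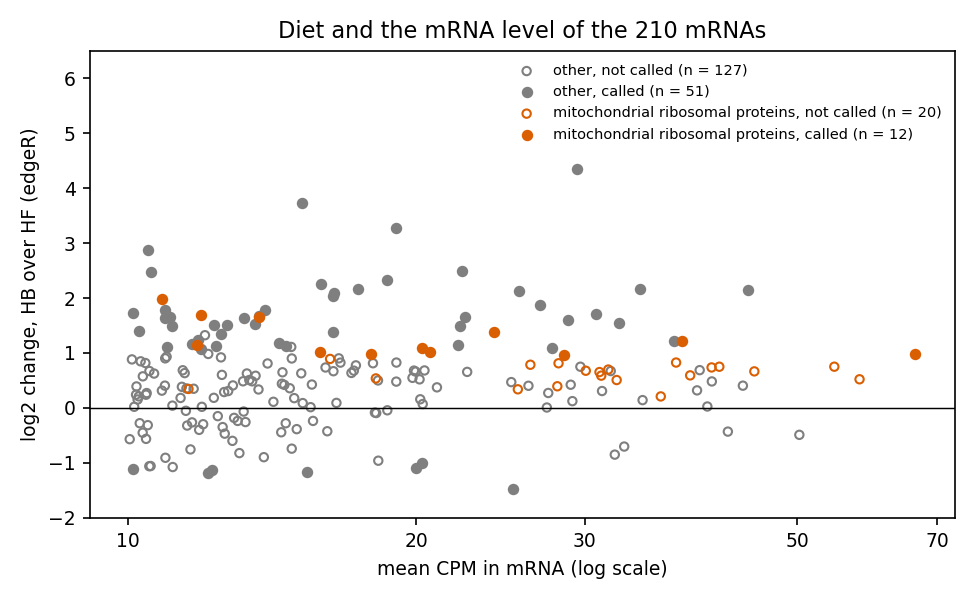
Mean CPM in mRNA (x axis, log scale) against the fitted log2 change of HB over HF (y axis) for each of the 210 genes, with filled points for those past an adjusted p of 0.05 in edgeR. All 32 mitochondrial ribosomal genes (orange) lie above 0 with TMM scaling (31 with total counts), and of the 178 others 44 are called higher and 7 lower.

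For m6A, 209 of the 210 could be placed on RefSeq gene spans and compared with the authors' peaks, which were called per library. Of these 83 (39.7%) overlapped a peak in all 4 m6A libraries and 88.0% in at least 1, against 45.5% and 89.3% of other genes in the same CPM range. The mitochondrial ribosomal genes were low, at 3 of 32 (9.38%) in all 4 libraries, as were those of the family over the read limit at 6 of 45 (13.3%). The 177 other placed genes were at 45.2%, close to the 45.5% of other genes.

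Peak overlap was higher in longer transcripts, in absent and other genes. At 1000 to 2000 bases 16.1% of the absent mRNAs and 21.6% of other genes had peaks in all 4 libraries, and at 4000 to 8000 bases 72.1% and 69.1% did. By gene span, introns included, the shares were 21.6% (8 of 37) against 13.4% up to 5000 bases, 15.3% against 20.7% at 5000 to 20000, 42.5% against 44.1% at 20000 to 50000 and 78.3% against 85.3% above 50000. Among spans over 4000 bases, the last 2000 bases held 11.2 peaks per 100 kb and library in absent genes and 12.1 in others, and the remainder 3.75 and 3.93. These densities cover 148 absent and 4041 other genes, which are not all the absent genes with such spans. Peaks were thus denser at the gene end by a ratio of 3.00 in absent genes and 3.07 in others. By number, summed over the 4 libraries, 133 peaks of absent genes lay in that window and 1021 elsewhere, so a site found in several libraries counts more than once. A peak in an intron could not be told from one in an exon here.

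**Figure D5:**
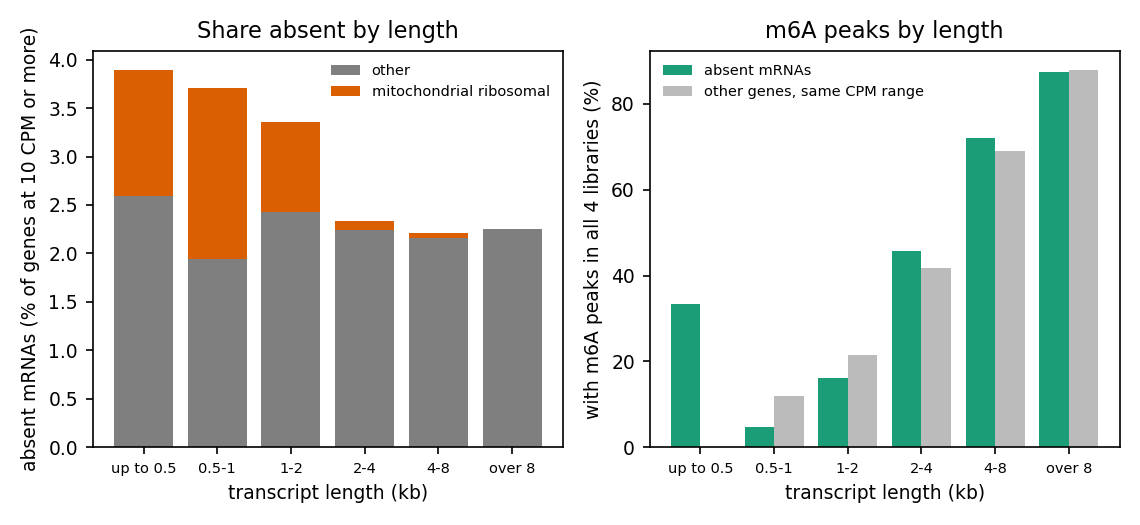
Left, percent of genes at 10 CPM or more that were absent from RNC mRNA (y axis) by transcript length in kb (x axis), with the mitochondrial ribosomal part in orange. Right, percent with m6A peaks in all 4 libraries (y axis) by length (x axis), for the absent mRNAs and for other genes in the same CPM range, which run from 4.76% and 11.96% at 0.5 to 1 kb to 87.5% and 88.0% above 8 kb (the class up to 0.5 kb has 3 absent mRNAs).

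The absent mRNAs with the strongest m6A enrichment in all 4 libraries, by the authors' fold of each library's best peak, were Foxo3, Myc, Lrba, Gna12 and Magi3. Foxo3, a forkhead factor of fasting and stress, reached 36.4-fold and 52.4-fold in HF and 46.1-fold and 24.4-fold in HB. Myc, a growth regulator, reached 21.6-fold and 71.3-fold in HF and 8.50-fold and 29.4-fold in HB, so its libraries differed more within a diet than between the diets. Peaks in both libraries of 1 diet and none of the other were rare. They were in HF alone for 7 genes (3.35%; Mrpl53, Mrpl44, Pes1, Slc35a1, Fgfr1, Iba57 and Spi1), against 3.22% of other genes in the same CPM range. They were in HB alone for 8 genes (3.83%; C330021F23Rik, Vmn1r58, Smim4, Llgl1, Mfap1b, Gas1, Maoa and Zbed6), against 2.09%. No test of peaks between diets was made, since a missing peak can lie just under the lowest deposited fold of 6.00. Of the 56 genes that rose in mRNA 21.4% had peaks in all 4 libraries (median length 1632 bases), against 46.6% of 146 that were not called (2868.5 bases). Of the 7 that fell, 42.9% had them (3308 bases). Mitochondrial ribosomal genes made up 12 of the 56, and the part of that family and of length in these shares was not tested.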

How the data were processed

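Deposited read counts per gene are, per the file headers, sums over splice variants with no normalization by the authors. The deposited RPKM divide them by the longest transcript and the library total. Per the labels, reads were mapped to RefSeq sequences, the aligner and counter for counts being not given in the sources used here. Per the submitters' processing notes the build was mm10 and MACS2 2.1.0.20151222 was among the tools. The authors' m6A peaks carry a fold enrichment (a ratio over local background), at least 6.00 in each deposited peak. Per the file headers the authors also gave a pileup signal and −log10 p and q values, not used here. Depth was 11437462 to 22492813 reads in mRNA and 5778439 to 8659310 in RNC libraries, and 22060 to 25718 peaks per m6A library.

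The 210 members and all gene lists were chosen with earlier results of these data known. CPM are counts over the library sum. The diet effect was fitted with edgeR 4.0.16 in R 4.3.3 (quasi-likelihood, TMM, filterByExpr, 2 group means of mRNA, Benjamini-Hochberg at 0.05), and the code was tested on simulated counts. Peaks were assigned by 1 base of overlap with the RefSeq gene span (GRCm38.p6), since exons were not used here; the plan had named exons. Gene ratios, lengths and motifs are descriptions without test. Named genes are those with most mRNA reads, the 10 largest called changes each way, up to 3 of each list, the 5 longest and shortest, and the 5 with strongest m6A; the text gives some of them, and any other gene was chosen after its values were seen. Alternatives were DESeq2 1.42.0, limma 3.58.1, other scalings, filters and limits, and leaving out each library. Input samples for m6A were not used. A further result is not reported here.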

Additional observations from a re-analysis of the deposited data

How the results depend on the processing

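The count of 210 absent genes became 448 with a mean of at least 5 CPM, 64 with at least 20 CPM and 109 with at least 10 CPM in each mRNA library, and 211 to 367 without 1 RNC library. Their median length of 2428.5 bases became 2683 at 0 reads in each RNC library, 1769 at 20 CPM or more and 2681.5 without mitochondrial ribosomal names. The 39.7% with m6A peaks in all libraries became 25.4% at 20 CPM or more and 19.1% with peaks of at least 10-fold. The median log2 change of 0.58 became 0.29 with total counts and 0.30 with limma on log2(RPKM + 0.1), where the medians of all genes were -0.28 and -0.24.

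Members called higher and lower (56 and 7) numbered 0 and 0 with all 8 mRNA and RNC libraries, where the common dispersion was 0.351 against 0.0644, and 0 and 0 with the HB RNC pair summed (7 libraries, chosen after seeing the data; 20 at an unadjusted p under 0.05). Lower calls numbered 12 with DESeq2, 12 at a mean CPM of at least 5, 14 with no low-count filter, 18 with total counts and 13 with limma on RPKM. Leaving out 1 mRNA library gave 25 to 64 higher and 1 to 9 lower; a lone library is then assumed to vary like the other diet. Of all genes, 1446 higher and 1294 lower became 783 and 2320 with total counts, 845 and 2126 with limma on RPKM, 81 and 50 with 8 libraries, 0 and 0 with 7 (1644 at an unadjusted p under 0.05), and 353 to 1682 higher and 431 to 1516 lower without 1 library.

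Replicate numbers were not shown to pair the samples (correlation of deviations -0.12 over genes, with 2 pairs). With the replicate block 58 were higher and 8 lower, and with the crossed pairing, added after seeing the data, 66 and 14. Of 27 named members with a diet change, 26 passed in DESeq2 and all 27 in limma voom. Longest annotated transcripts of a genome annotation and exon overlap of peaks were not run. At 2 libraries per diet and at most 8659310 RNC reads, a gene at 0 in all RNC libraries can lie anywhere up to 0.110 CPM by counting error alone. The spread between libraries is not in this limit.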
